A study of Mus musculus with 4 samples.

Results

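Lymphoid priming and early B-cell genes were examined in progenitor-rich mouse bone marrow with and without Mtg16 (gene symbol Cbfa2t3). The 10 genes, listed by symbol, were Dntt, Rag1, Satb1, Il7r, Ebf1, Vpreb1, Vpreb3, Cd79b, Ly6d and Ikzf1, and the probe with the highest mean signal over the 4 arrays was to stand for each gene. Of these, 9 had a probe annotated with that symbol alone, and each had exactly 1 such probe, out of 13840 genes with a probe of 1 symbol. Il7r, the interleukin 7 receptor chain gene, had none and was not analysed here. A further probe carried the symbols of both Vpreb1 and Vpreb2 and was left out. Vpreb2 is a near-identical copy of Vpreb1, so the Vpreb1 signal may include it.

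The Mtg16-null group comprised 2 arrays of female mice aged 8 to 12 weeks, whose strain label reads N4 backcrossed into C57BL/6. The wild-type group comprised 2 arrays of female C57BL/6 mice of the same age range. Each array held RNA of lineage-negative marrow from the femur and tibia of 4 pooled mice. The arrays came from 2 lots, with 1 array of either genotype in each. Lineage-negative marrow is what a magnetic column leaves after cells with surface markers of mature blood lineages are removed. The labels do not say whether both arrays of a genotype came from separate pools, so p-values reflect how far these 4 samples scatter, and that scatter may be technical. They also give no age of the individual mice and no site of the deletion. Littermate controls are not mentioned, and nothing gives the share of donor-strain genome in the null mice.

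Lymphoid fate is primed in multipotent progenitors before a lineage is fixed. The chromatin organiser Satb1 and the zinc finger factor Ikaros (Ikzf1) act early, the recombination genes Rag1 and Dntt are switched on as lymphoid progenitors form, and Ebf1 then commits cells to the B lineage. Ebf1 switches on B-lineage genes, among them Vpreb1, Vpreb3 and Cd79b, while Ly6d is a surface protein that marks lymphoid progenitors turned towards the B lineage. Mtg16 is a corepressor of the ETO family that other factors bring to DNA, and E proteins, which bind the E-box CANNTG and drive early lymphoid genes, are among them.

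Because binding of E proteins rests on the E-box, the 250 bases before the start are shown for 4 of these genes. They are Rag1, Dntt, Vpreb1 and Vpreb3, with every CANNTG in capitals. The sequences are RefSeq's on the mouse build GRCm38.p6, each written 5′ to 3′ on the strand of its gene. They lie at chr2:101649533-101649782 on the minus strand (Rag1), chr19:41029025-41029274 on the plus strand (Dntt), chr16:16869256-16869505 on the minus strand (Vpreb1) and chr10:75948050-75948299 on the plus strand (Vpreb3).
Rag1: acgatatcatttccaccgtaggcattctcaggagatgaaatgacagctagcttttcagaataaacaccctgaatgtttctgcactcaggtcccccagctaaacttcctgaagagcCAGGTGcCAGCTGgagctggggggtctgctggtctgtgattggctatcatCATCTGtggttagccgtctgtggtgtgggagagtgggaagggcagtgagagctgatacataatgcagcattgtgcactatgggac
Dntt: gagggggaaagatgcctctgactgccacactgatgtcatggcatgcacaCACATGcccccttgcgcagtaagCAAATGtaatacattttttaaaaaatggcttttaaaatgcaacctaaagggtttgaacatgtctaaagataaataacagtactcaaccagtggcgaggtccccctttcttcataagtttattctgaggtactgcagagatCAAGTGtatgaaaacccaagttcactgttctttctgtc
Vpreb1: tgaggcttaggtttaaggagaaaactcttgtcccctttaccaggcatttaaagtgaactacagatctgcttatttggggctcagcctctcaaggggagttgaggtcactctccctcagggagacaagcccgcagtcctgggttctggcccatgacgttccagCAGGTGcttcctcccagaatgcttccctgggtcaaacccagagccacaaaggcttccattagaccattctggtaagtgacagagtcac
Vpreb3: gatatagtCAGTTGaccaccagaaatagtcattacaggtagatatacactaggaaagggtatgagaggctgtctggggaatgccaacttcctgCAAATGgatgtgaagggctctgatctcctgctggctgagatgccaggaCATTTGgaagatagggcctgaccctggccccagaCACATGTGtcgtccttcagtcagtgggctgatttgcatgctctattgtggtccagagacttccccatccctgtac

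The Rag1 window holds 3 matches, CAGGTG at -135, CAGCTG at -128 and CATCTG at -85, where a position is that of the first base counted back from the start. Vpreb1 holds 1, CAGGTG at -88. Vpreb3 holds 5, of which CACATG at -75 and CATGTG at -73 overlap each other, and Dntt holds 3. The promoter table had 14 start sites for 8 of the 10 genes, with Cd79b and Ly6d not in it. At least 1 CANNTG, which reads the same on both strands, was in 8 of these 14 windows, or 57.1%, against 66.2% of all 32851 windows of that length. CAGGTG, searched on both strands and itself 1 form of CANNTG, was in 3 of 14 (21.4%, against 17.2% of all windows). The Runx motif TGTGGT, also searched on both strands, was in 3 (21.4%, against 14.0%). These matches describe letters in the windows and are not bound sites.

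Of the 9 measured genes, 7 had higher signals in both Mtg16-null arrays than in both wild-type arrays, 1 (Ly6d) had lower signals, and 1 (Ikzf1) overlapped. The same 7 were higher within each lot and Ly6d was lower within each, against 33.6% and 36.8% of the 8445 genes tested. Over those genes, 22.6% had both null arrays above both wild-type arrays and 23.1% had both below. The median log2 difference of the 9 genes, null minus wild type, was 1.06, against -0.02 over all tested genes. It was 1.18 in array lot 1 and 0.99 in lot 2, against -0.04 and 0.01 over all genes. The list was chosen with earlier results of these arrays known, so its median and counts are descriptions. None of the 9 passed limma at an adjusted p under 0.05 (0 of 9, lowest adjusted p = 0.0955), a threshold that 0.118% of all tested genes passed and 0% passed as higher in null. With a variance trend 4 of the 9 (Dntt, Ebf1, Vpreb1 and Vpreb3) did pass as higher, against 2.14% of all genes, and among the brightest 25% of probes 4 of 7 (Dntt, Rag1, Vpreb1 and Vpreb3), against 3.87%. At an unadjusted limma p under 0.05, 6 of the 9 were higher and 0 lower, against 9.65% of all genes higher and 6.83% lower. Since whole marrow fractions were measured, more cells of a type and more RNA per cell cannot be told apart.

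**Figure D1:**
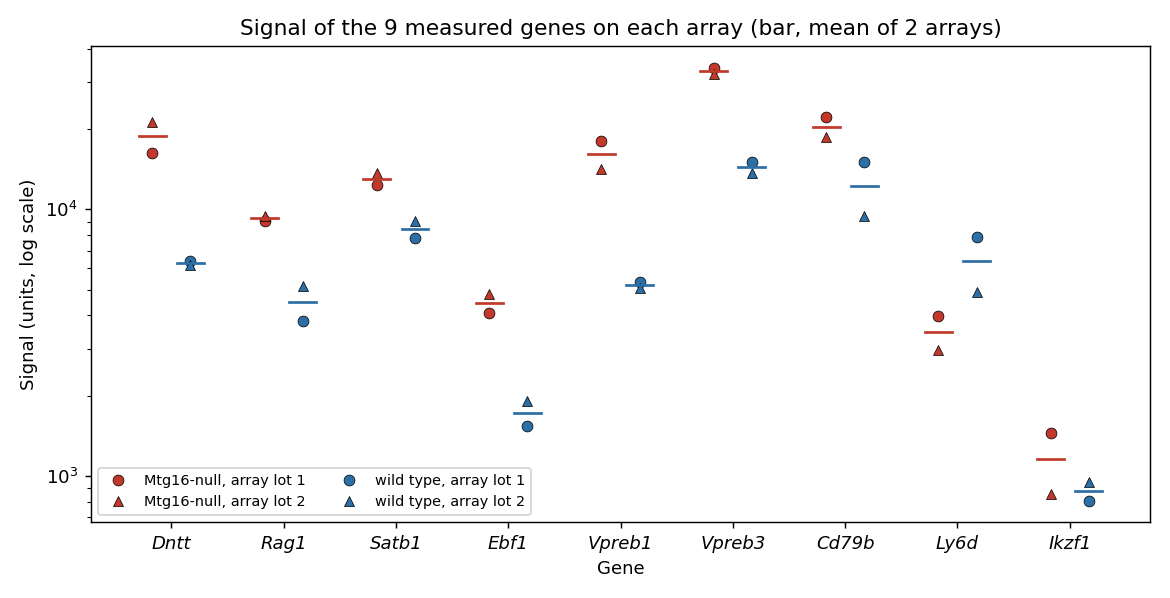
Signal on each array (vertical axis, signal units, log scale) for the 9 measured genes, with Mtg16-null arrays in red left of wild-type arrays in blue, circles for array lot 1, triangles for lot 2 and bars for the mean of 2 arrays. The red points lie above the blue ones for 7 genes, below them for Ly6d and around them for Ikzf1.

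The early factors differed least. Satb1 read 12314 and 13733 signal units in the Mtg16-null arrays of lots 1 and 2, against 7820 and 9059 in the wild-type arrays. Both null readings lay above both wild-type readings, and the difference was 1.54-fold (log2 0.63, SE 0.19, limma adjusted p = 0.244). The Satb1 differences in the 2 lots, 0.65 and 0.60 on the log2 scale, were among the closest of the 9 genes. Ikzf1 read 1454 and 853 units in the null arrays, against 809 and 950 in the wild-type arrays. The groups overlapped: the null array was higher in lot 1, by 0.85 on the log2 scale, and lower in lot 2, at -0.16. The fitted difference of Ikzf1 was 0.35 (SE 0.32, 95% interval -0.55 to 1.24, limma adjusted p = 0.705), and it was -0.039 without null array 1 and 0.73 without null array 2. Ikzf1 was also the dimmest of the 9, at percentile 18.5 of mean level among tested genes. Its difference is therefore not resolved in either direction by these arrays.

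The recombination genes were higher in the null arrays. Dntt, which encodes the terminal transferase that adds bases at the joins of antigen receptor genes, read 16200 and 21341 units in the null arrays, against 6425 and 6159 in the wild-type arrays. The lowest null reading was more than the highest wild-type reading, the wild-type arrays lay close together, and null array 2 was the highest of the 4. The log2 difference of Dntt was 1.56 (SE 0.22, limma adjusted p = 0.0975), with 1.33 in lot 1 and 1.79 in lot 2. Rag1, a subunit gene of the recombinase that cuts antigen receptor genes, read 9029 and 9469 units in the null arrays, against 3826 and 5148 in the wild-type arrays. For Rag1 the null arrays were the close pair and the wild-type arrays the spread one. The Rag1 difference was 1.06 (SE 0.22, limma adjusted p = 0.141), with 1.24 and 0.88 in the 2 lots. Rag2, which encodes the partner subunit, was read by a probe too dim for the test, at 95.9 and 753 units in the null arrays against 98.8 and 223 in the wild-type arrays. Both Rag2 readings of lot 1 lay within the 94.5 to 310 units that probes of 3 Y-linked genes gave on these arrays of female mice, here taken as a background range. Only null array 2 was clearly above that range for Rag2.

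Ebf1, Vpreb1 and Vpreb3 were the other strongly higher genes. Ebf1, the factor that specifies the B lineage, read 4102 and 4813 units in the null arrays, against 1537 and 1918 in the wild-type arrays. The groups were well apart. Ebf1 differed by 1.37 on the log2 scale (SE 0.21, limma adjusted p = 0.104), with 1.42 and 1.33 in the 2 lots. Vpreb1, which encodes the variable-like part of the surrogate light chain in the pre-B-cell receptor, read 17998 and 14149 units in the null arrays, against 5341 and 5079 in the wild-type arrays. This was the largest difference of the 9 genes, 3.06-fold (log2 1.62, SE 0.21, limma adjusted p = 0.0955), with 1.75 in lot 1 and 1.48 in lot 2. Vpreb3, which encodes a related protein that associates with nascent heavy chains in B-lineage cells, read 34000 and 32181 units in the null arrays, against 15047 and 13709 in the wild-type arrays. It was the brightest probe of the 9, at percentile 76.8 of mean level. Replicate arrays of Vpreb3 lay close together in both groups, and its log2 difference of 1.20 had the smallest error of the 9 (SE 0.17, limma adjusted p = 0.0975; 1.18 and 1.23 in the 2 lots). Dntt, Ebf1, Vpreb1 and Vpreb3 were the 4 of 9 with a log2 difference above 1 in both lots, which 3.26% of all tested genes had. Placed among the differences of all 8445 genes, Vpreb1 lay at percentile 98.7, Dntt at 98.5, Ebf1 at 97.8 and Vpreb3 at 96.3.

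Cd79b was higher and Ly6d lower in the null arrays, and both read dimmer in lot 2 in either genotype. Cd79b, which encodes the Ig-beta signalling chain of the B-cell receptor, read 22150 and 18712 units in the null arrays, against 15081 and 9441 in the wild-type arrays. Ly6d read 3978 and 2966 units in the null arrays, against 7867 and 4893 in the wild-type arrays. For both genes the groups did not overlap. Their log2 differences had opposite signs, 0.77 for Cd79b (SE 0.30, 95% interval -0.05 to 1.59, limma adjusted p = 0.336) and -0.85 for Ly6d (SE 0.33, 95% interval -1.75 to 0.04, limma adjusted p = 0.325). Within lots 1 and 2 the differences were 0.55 and 0.99 for Cd79b and -0.98 and -0.72 for Ly6d. A single wild-type array moved these values: leaving out the wild-type array of lot 1 gave 1.11 for Cd79b and -0.51 for Ly6d, and leaving out that of lot 2 gave 0.43 and -1.20. When array lot entered the fit as a block, the standard error became 0.17 for Cd79b and 0.14 for Ly6d, and both had an unadjusted p under 0.05. In that fit 7 of the 9 genes were higher at an unadjusted p under 0.05 and 1 lower, against 13.3% of all genes higher and 11% lower. No gene of all those tested passed an adjusted p under 0.05 in the blocked limma fit, and the 8 genes ran from an adjusted p of 0.113 to 0.153.

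**Figure D2:**
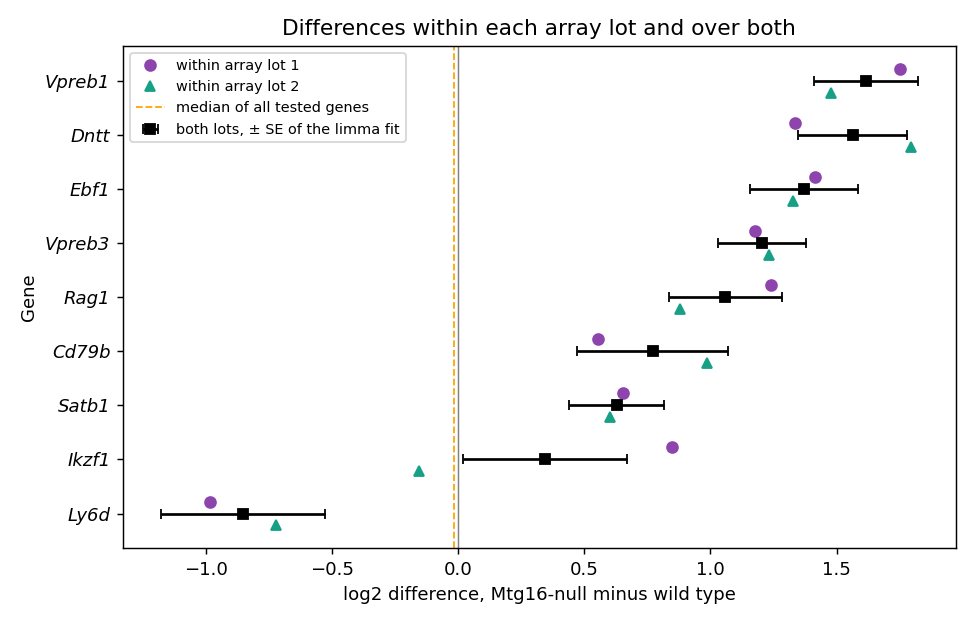
The log2 difference, Mtg16-null minus wild type (horizontal axis), for each of the 9 genes, within array lot 1 (circles), within lot 2 (triangles) and over both (squares, with the standard error of the limma fit). All points of 7 genes lie right of 0 and those of Ly6d left of it, and Ikzf1 has its lot 1 point at 0.85 and its lot 2 point at -0.16.

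Across the 4 arrays the 9 genes did not follow 1 common profile. Likeness was measured as the root mean square distance between log2 values, each gene centred on its own mean over the 4 arrays. The most alike pairs were Rag1 with Ebf1, at a distance of 0.17, and Dntt with Ebf1, at 0.18. Vpreb1 and Vpreb3 were 0.23 apart. Ly6d was farthest from Dntt, at 1.26, and its nearest gene of the list was Ikzf1, at 0.69. Over all tested genes, Dntt was nearest to Calml4 (0.04), Nrg4 (0.05) and Vill (0.06), Ebf1 to Cyp2j6 (0.01), Bex1 (0.04) and Tnfrsf1a (0.04), and Ly6d to Spata24 (0.06), Slc2a8 (0.06) and Usp6nl (0.07). With 4 arrays in 2 groups, many genes come close to any profile, so these neighbours are descriptions only.

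Other genes of early lymphoid and B-cell development were read from lists. Of 23 further early lymphoid genes 13 were tested, and 0 passed limma at an adjusted p under 0.05. At an unadjusted p under 0.05, 3 were higher and 0 lower (5 and 1 with the lot block), and the median log2 difference was 0.37. Over all tested genes 9.65% were higher and 6.83% lower at that p (13.3% and 11% with the lot block). The counts of the lists that follow are to be read beside the same shares. Gfi1, a repressor that acts in both lymphoid and granulocyte precursors, had the largest value, 19943 ± 533 units in the null arrays and 5097 ± 1037 in the wild-type arrays (SD, n = 2; log2 1.98, limma adjusted p = 0.0840). Spi1, the PU.1 gene needed in myeloid and lymphoid progenitors, had a difference of 1.40, with 1.03 in lot 1 and 1.78 in lot 2. Both are also genes of granulocyte and monocyte precursors. Myb and Mef2c, transcription factor genes of lymphoid progenitors, had differences of 0.75 and 0.66. Flt3, the receptor gene that marks lymphoid-primed progenitors, read 16197 and 14454 units in the null arrays, against 13641 and 8470 in the wild-type arrays. The Flt3 groups did not overlap, but the difference of 0.51 was small beside the spread of the wild-type pair (limma adjusted p = 0.504). Tcf3, the E2A gene of the E protein family, had a difference of -0.22, with overlapping groups. Stat5b, which signals below the interleukin 7 receptor, had one of -0.26, and the chemokine receptor gene Ccr9 one of -0.50.

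Of 21 further genes of the B-cell programme 13 were tested, with a median of 0.48, and 0 passed an adjusted p under 0.05. At an unadjusted limma p under 0.05, 5 were higher and 1 lower. Irf8, a transcription factor gene of B-cell, monocyte and dendritic cell precursors, read 38020 and 37594 units in the null arrays, against 20655 and 17595 in the wild-type arrays (log2 0.99, limma adjusted p = 0.122). Lef1, a pro-B-cell factor gene, had a difference of 0.93, Sox4 one of 0.74 and Syk, the kinase gene downstream of the B-cell receptor, one of 0.72. The gene that was lower was Cd24a, an antigen of B-cell precursors that red cell precursors also carry, with 416158 ± 25944 units in the null arrays and 638050 ± 42618 in the wild-type arrays (SD, n = 2; log2 -0.62, limma adjusted p = 0.231). Irf4 had a difference of -0.44, with overlapping groups. Cd79a, which encodes the partner chain of Cd79b, read 2530 and 1873 units in the null arrays, against 2325 and 1226 in the wild-type arrays, with overlapping groups (log2 0.37, limma adjusted p = 0.740). The signals of Cd79a were lower in lot 2 in both genotypes, as were those of Cd79b. Pax5, the factor that fixes B-cell identity, was too dim for the test, at 266 and 322 units in the null arrays against 246 and 203 in the wild-type arrays, near the background range. Igll1 had no probe with 1 symbol and was not analysed here.

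**Figure D3:**
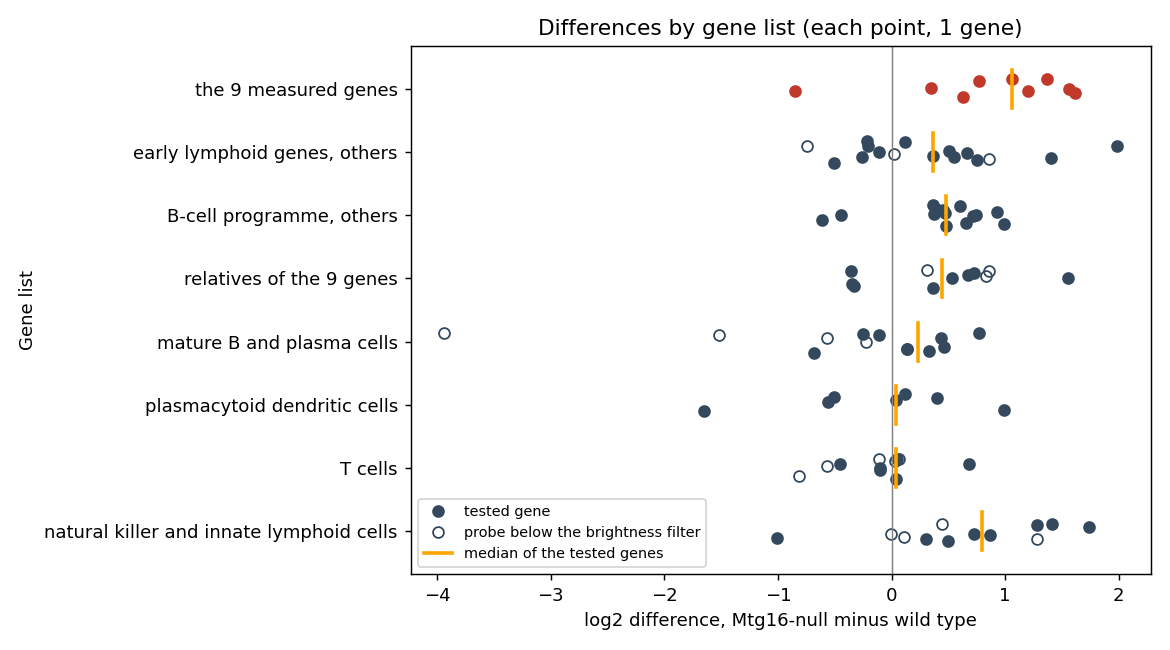
The log2 difference, Mtg16-null minus wild type (horizontal axis), of every gene with a probe in 8 lists, where filled points were tested, open points had probes below the brightness filter and orange lines are medians of tested genes. The 9 measured genes have a median of 1.06, the other early lymphoid genes 0.37, the other B-cell genes 0.48 and the relatives 0.45. The median is 0.23 for mature B and plasma cell genes and 0.80 for natural killer and innate lymphoid genes. It is 0.04 for T-cell genes and also 0.04 for plasmacytoid dendritic cell genes. The open point near -4 is Ms4a1.

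Relatives of the 9 genes had differences of either sign. Of 19 relatives 8 were tested, with a median of 0.45, and 0 passed an adjusted p under 0.05. At an unadjusted limma p under 0.05, 2 were higher and 0 lower (4 and 0 with the lot block). Both null arrays lay above both wild-type arrays for 3 and below them for 0, against 22.6% and 23.1% of all tested genes. The groups overlapped for 5, Polm, Crlf2 and Ikzf5 among them. Ly6c1, a Ly6 family gene, read 208577 and 175505 units in the null arrays, against 79832 and 53032 in the wild-type arrays, a log2 difference of 1.56 (limma adjusted p = 0.115) opposite in sign to that of Ly6d. Ly6e had a difference of 0.53. Polm and Poll, DNA polymerase genes of the family of Dntt, had differences of -0.33 and 0.73. Crlf2, a cytokine receptor gene whose product pairs with the interleukin 7 receptor chain, had one of 0.67. The Ikaros family gene Ikzf5 had one of -0.36, and Ikzf2 was dim, at 243 and 243 units in the null arrays and 141 and 131 in the wild-type arrays.

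Mature B and plasma cell genes had differences of either sign, and the widest was that of Ms4a1. Ms4a1, which encodes CD20 of B cells past the pro-B stage, read 75.8 and 143 units in the null arrays, against 1444 and 1767 in the wild-type arrays. The first null reading stood at the floor set for dim signals and the second lay within the background range, while both wild-type readings were far above it. The mean of its log2 values over the 4 arrays, drawn down by the null arrays, put Ms4a1 below the brightness filter. In the fit without that filter its log2 difference was -3.94, with a limma adjusted p of 0.260, and the size depends on the floor, at which null array 1 stood. Cr2, the complement receptor gene of mature B cells, read 127 and 121 units in the null arrays, against 242 and 523 in the wild-type arrays. Since 3 of these 4 readings lay within the background range, the lower Cr2 signal rests on wild-type array 2. Cd22 overlapped between groups, at 139 and 98.5 units in the null arrays against 102 and 294 in the wild-type arrays. Of 14 mature B and plasma cell genes 8 were tested, with a median of 0.23, and 0 had an unadjusted limma p under 0.05, against 3 higher (Mzb1, Sdc1 and Xbp1) and 0 lower with the lot block. Of the 8 tested genes 6 overlapped between groups (Cd40, Cd83, Tnfrsf17, Jchain, Sdc1 and Fcrla), as did the dim Cxcr5 and Prdm1. The other 2, Mzb1 and Xbp1, had both null arrays above both wild-type arrays, against 22.6% of all tested genes. Jchain, the joining chain gene of plasma cells, had a difference of -0.25, and Mzb1, Sdc1, Xbp1 and Fcrla had differences of 0.77, 0.46, 0.44 and 0.33. The summed signal of the 13 genes of this list with a probe was 160056 to 181029 units in the null arrays and 158163 to 196404 in the wild-type arrays, with Jchain the largest part.

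**Figure D4:**
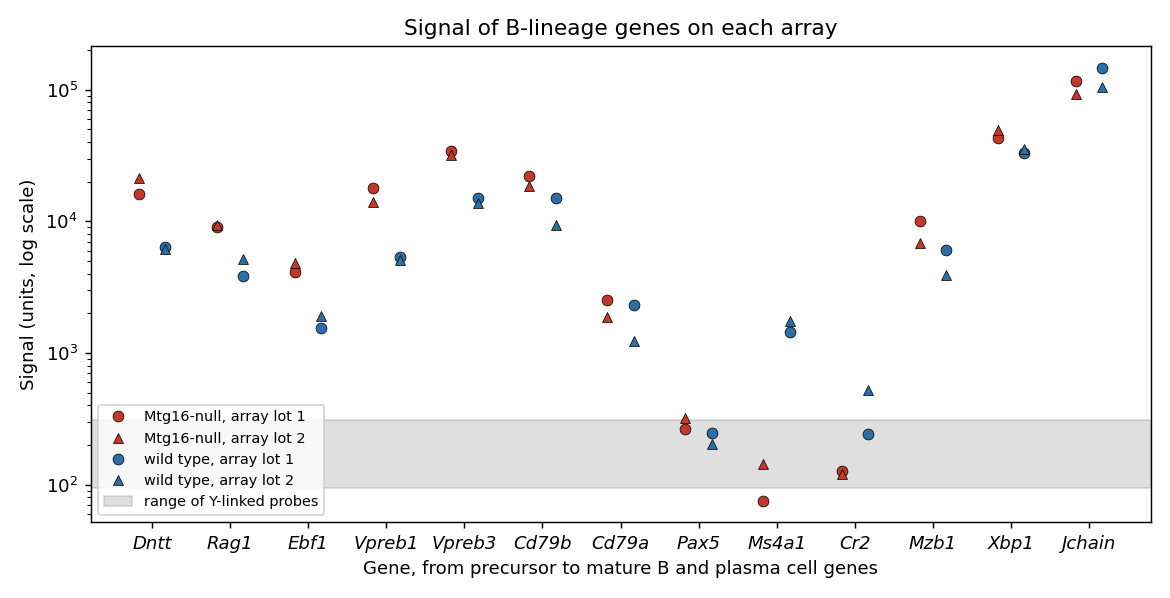
Signal on each array (vertical axis, signal units, log scale) for genes ordered from lymphoid precursors to mature B and plasma cells, with Mtg16-null arrays in red left of wild-type arrays in blue, circles for array lot 1 and triangles for lot 2, and a grey band for the range of Y-linked probes. Red lies above blue from Dntt to Cd79b, and both colours overlap for Cd79a. For Ms4a1 the null arrays read 75.8 and 143 units against 1444 and 1767 in wild type. The genes are a selection: Ly6d and Cd24a, both lower in the null arrays, and Ikzf1, which overlapped, are not drawn. Ms4a1 and Cr2 were singled out after their values were seen.

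In the lists of T cells, natural killer and innate lymphoid cells and plasmacytoid dendritic cells, the limma adjusted p was under 0.05 for 0 genes. T-cell genes were mostly dim, with 6 of the 11 that had a probe below the brightness filter, Cd3e and Cd3d among them, and the 5 tested had a median of 0.04, 1 of them higher and 0 lower at an unadjusted limma p under 0.05 (1 and 1 with the lot block). The highest and lowest were Zap70 (0.68) and Gata3 (-0.46). The 8 tested natural killer and innate lymphoid genes had a median of 0.80, with 3 higher and 1 lower at that p. Nkg7, a cytotoxic granule gene, read 237264 and 206814 units in the null arrays, against 66360 and 66507 in the wild-type arrays, and Klrb1c, Gzma, Klrk1 and Gzmb had differences of 1.41, 1.28, 0.73 and -1.01. Genes of plasmacytoid dendritic cells, which express several lymphoid genes, had a median of 0.04 over 7 tested genes, 1 of them (Irf8) higher and 0 lower at that p (1 and 1 with the lot block). Siglech, the defining receptor gene of these cells, had a difference of 0.40 and Bst2 one of 0.04, both with overlapping groups. Tcf4 had one of 0.12. Klk1 had the widest difference of this list, -1.65, also with overlapping groups, and Ccr9 had one of -0.50.

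Progenitor genes were bright in both genotypes, and so were S100a9 and Hba-a1, genes of lineages to be removed. Of 8 progenitor genes 7 had a probe and all 7 were tested, with a median difference of 0.51, 2 higher and 0 lower at an unadjusted limma p under 0.05 (Cd34 at 1.48 and Cd48 at 1.33) and Kit at -0.19. Their summed signal was 1269250 to 2025380 units in the null arrays and 1128830 to 1208020 in the wild-type arrays, most of it from Mpo, the myeloperoxidase gene of granulocyte precursors, at 1703090 and 973204 units in the null arrays and 993744 and 951401 in the wild-type arrays. Of 6 genes of depleted lineages 3 had a probe, Cd3e and Ms4a1 below the brightness filter and Itgam at a difference of -0.05. Their sum was 658 to 997 units in the null arrays and 2226 to 2449 in the wild-type arrays, which follows Ms4a1. S100a9, a calcium-binding protein gene of neutrophils, averaged 75468 ± 2804 units in the null arrays and 808276 ± 110196 in the wild-type arrays, and the globin gene Hba-a1 368736 ± 42971 units in the null arrays and 544695 ± 84837 in the wild-type arrays (SD, n = 2). In the wild-type arrays Cd3e read 120 and 325 units and Itgam 663 and 357. How fully mature cells were removed was not tested. All 10 late neutrophil genes had both null arrays below both wild-type arrays, against 23.1% of all tested genes. Of these 10, 6 passed an adjusted limma p under 0.05, against 0.118% of all genes as lower. Their median was -3.81 and their sum 144275 to 154608 units in the null arrays and 1335940 to 1451280 in the wild-type arrays. The 7 tested erythroid genes had a median of -1.40, with 0 past the adjusted limma threshold. At an unadjusted limma p under 0.05, 5 were lower (6 with the lot block), against 6.83% of all tested genes (11%). All 7 had both null arrays below both wild-type arrays, against the same 23.1%. The erythroid genes with a probe summed to 479853 to 542014 units in the null arrays and 721524 to 848581 in the wild-type arrays. Arrays had been scaled to a common distribution, and the part of these shifts in the values of the lymphoid genes was not tested. The probe of the targeted gene Cbfa2t3 read 95520 and 118572 units in the null arrays, against 80854 and 100256 in the wild-type arrays, and since its position relative to the deletion is not known it does not check the genotype labels.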

How the data were processed

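Signals of probes on single-colour Applied Biosystems arrays were available for 4 samples. The deposited values are intensity on a linear scale, and the equal distributions of the 4 columns show that the authors had quantile normalized them (sorted values differed by at most 0.286%). The sources used here give neither background correction nor detection calls. Probes were named from the supplied platform annotation, and only the 14411 of 33012 with 1 symbol were used; 14402 matched the RefSeq gene table.

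Signals under the 1st percentile (75.8 units) were raised to it before the log2 step. A filter kept the upper 50% of probes by their mean log2 value over the 4 arrays, with 1 probe a gene (the highest mean), leaving 8445 genes. All 9 measured lymphoid genes passed, and would have in either genotype alone. Differences, null minus wild type, were fitted in limma 3.58.1 (R 4.3.3) with genotype as the only term and Benjamini-Hochberg adjustment over all genes (2 residual and 2.11 prior degrees of freedom). Genes below the filter come from a fit without it. The number of arrays limits the precision. The genes and lists were chosen with earlier results of these data known. All 9 measured genes were named. Of each list but those of late neutrophils and erythroid cells, up to 4 genes a direction were named. They were taken by the smaller of their 2 within-lot differences where the lots had the same sign, with Pax5, Cd79a, Igll1, Flt3 and Rag2 added. Other genes, such as S100a9, Hba-a1, Mpo and Ikzf2, were named outside that rule. Dim markers such as Ms4a1 and Cr2 were singled out after their values were seen.

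The series text states that the replicate number is the array lot, so same-numbered arrays pair, and deviations from the group means of same-lot arrays correlated at 0.50 over the 8445 genes. Alternatives changed the floor, the offset, the scaling, the filter, the choice of probe, the variance trend and the lot block, and left out each array. Plots used Python 3.11.15 and matplotlib 3.10.9.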

Additional observations from a re-analysis of the deposited data

Results flagged for a closer look

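Ikzf1 stood apart because its log2 difference, null minus wild type, had opposite signs in the 2 array lots, 0.85 in lot 1 and -0.16 in lot 2. Each lot holds 1 array of either genotype, and the difference between the lots was not tested.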

How the results depend on the processing

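The 7 genes higher in both lots stayed 7 under each other floor, offset, scaling and probe choice and without the filter on dim probes; a filter at the brightest 25% left 7 of the 9 genes, of which 6 were higher in both lots. Genes past an adjusted p under 0.05 numbered 10 in the reported fit, 0 without the filter, 0 with the replicate block of array lot, 295 when filtered to the brightest 25%, also 295 with a variance trend, and 0 with any 1 array left out. Of the lymphoid genes 4 passed that threshold in the brightest 25% (Dntt, Rag1, Vpreb1 and Vpreb3; 3.87% of genes tested passed as higher) and 4 with a variance trend (Dntt, Ebf1, Vpreb1 and Vpreb3; 2.14%), and 0 with any 1 array left out. Over all alternatives the adjusted p ran from 0.0177 to 0.496 for Vpreb1, from 0.0212 to 0.424 for Dntt and from 0.0213 to 0.539 for Vpreb3. The count at an unadjusted p under 0.05 was 8 with the lot block and 4 to 7 with an array left out (4 without null array 2). Of the 124 values of single genes under the alternatives, 115 kept their sign and their side of the adjusted threshold, 8 newly passed it and 1 reversed: Ikzf1 at -0.039 without null array 1, against 0.73 without null array 2. With an array left out, the lone array of its group was assumed to vary like the other group. No background correction could be varied on the deposited values.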

Other observations

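Among the genes of the lists, the 2 chains of the B-cell receptor differed by 0.77 (Cd79b) and 0.37 (Cd79a) on the log2 scale, and in both the second lot had the larger value, 0.99 and 0.61 against 0.55 and 0.12 in lot 1. In some genes 1 pair of arrays was tighter than the other. Dntt and Vpreb1 had wild-type arrays 0.06 and 0.07 apart on the log2 scale and null arrays 0.40 and 0.35 apart. The null arrays of Rag1 were 0.07 apart and its wild-type arrays 0.43. Null and wild-type gaps were nearer in size for Satb1 (0.16 and 0.21), Ebf1 (0.23 and 0.32) and Vpreb3 (0.08 and 0.13). Whether the gaps differ was not tested.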
